A study of Mus musculus with 1152 samples.

Results

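Mcl1 and 9 of its relatives in the Bcl2 family were examined in the lymphatic endothelial cells (LECs) that line the nasopharyngeal lymphatic plexus (NPLP), a network at the back of the nose through which cerebrospinal fluid drains. The members were chosen by name, and all 10 had a row among the 23168 genes of the expression matrix. They were 3 pro-survival genes (Mcl1, Bcl2 and Bcl2l1), 2 effectors (Bax and Bak1) and 5 BH3-only genes (Bad, Bid, Bbc3, Pmaip1 and Bcl2l11). Their transcripts were followed across all cells analysed, whose number is given with the processing.

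Proteins of the Bcl2 family decide whether the outer mitochondrial membrane stays intact. Pro-survival members hold the effectors in check. BH3-only members, switched on by stress, bind the pro-survival members or the effectors directly, and once Bax or Bak1 perforates the membrane, released cytochrome c starts the caspase cascade. MCL1 is a short-lived protein that needs constant synthesis, and endothelial cells are among the cell types that rely on it. Protein was not measured in these data, and transcript level does not give the amount or activity of these proteins.

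The cells came from the nasopharyngeal mucosa of aged c57bl/6 mice of both sexes, all well over a year old, whose tissue was pooled before enzymatic digestion. Live cells carrying CD31 and podoplanin were placed singly in wells, and libraries were made with Smart-seq3, a plate method that covers whole transcripts. All cells belonged to 1 group, and since the labels tie none of them to a mouse, the pool counted as 1 sample. No comparison with younger mice was made, and no test was run, because cells of 1 pool are not replicates.

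Sequencing depth was uneven, between 7046 and 10727631 reads per cell (median 148202.5). For comparisons at equal depth, cells were thinned at random to 20000 reads, and the 88 cells below that depth were left out. At least 1 read counted as detection. Shares of cells carry exact (Clopper-Pearson) 95% intervals for counting error, and differences between mice are outside them. Beside a count of 0, the limit given is instead the share that 3 cells would make, which is lower than the exact upper bound. Of the 8 LEC identity genes the median was seen in 97% of cells and the lowest, Ccl21a, in 87.7%. Of markers of other cell types, the 6 haematopoietic genes had a median of 1.07% and reached 9.60% for Fcer1g, Dcn of fibroblasts was seen in 30%, and Epcam in no cell, a count of 0 that would leave room for 0.457%. No cell type lacking a member was present to give a background share for it.

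Mcl1 (chromosome 3, 95658788 to 95663176, plus strand, GRCm38) and Bcl2l1, which encodes BCL-XL (chromosome 2, 152780668 to 152831728, minus strand), were the widely detected pro-survival genes. The 250 bases before a transcription start of each are shown because their transcripts, similar in reach, behaved differently across cells, as given further on. The sequences are from RefSeq, build GRCm38.p6, written 5′ to 3′ on the gene's strand. For Bcl2l1 the window is the one of its 3 that lies outside all annotated exons of the gene. Capitals mark a GC box (GGGCGG on either strand), a motif bound by Sp1.

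Mcl1 (chr3:95658471-95658720, plus strand): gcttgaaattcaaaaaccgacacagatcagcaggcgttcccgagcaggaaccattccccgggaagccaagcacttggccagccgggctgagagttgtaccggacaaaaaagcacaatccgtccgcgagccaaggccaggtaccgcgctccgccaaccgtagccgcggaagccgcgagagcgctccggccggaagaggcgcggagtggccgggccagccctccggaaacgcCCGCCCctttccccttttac

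Bcl2l1 (chr2:152831729-152831978, minus strand): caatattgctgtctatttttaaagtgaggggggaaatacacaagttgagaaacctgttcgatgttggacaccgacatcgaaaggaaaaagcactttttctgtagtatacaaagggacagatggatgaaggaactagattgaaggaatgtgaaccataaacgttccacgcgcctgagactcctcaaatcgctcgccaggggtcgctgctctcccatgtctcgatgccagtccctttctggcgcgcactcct

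The Mcl1 window had a GC content of 64.4% and 1 GC box, starting at position -20, and the Bcl2l1 window had a GC content of 47.6% and none. Positions count from the RefSeq start. For Mcl1 that start was not found in a GENCODE transcript and lies upstream of the gene start given above, whereas that of Bcl2l1 was found. The search covered 15 RefSeq windows of 9 members, some of them overlapping or from other starts of the same gene. Pmaip1 was left out of it, so the counts below do not cover that gene. A GC box was found in 10 of the 15, beside 33% of all 32536 distinct windows of this length. On both strands, 0 of the 15 held a STAT motif (TTCNNNGAA), an AP-1 motif (TGANTCA), a CRE (TGACGTCA) or an SRF CArG box, motifs of stress-inducible factors. These were in 7.04%, 6.73%, 1.56% and 1.48% of all windows. An NF-kB consensus was in 2 windows, of Bbc3 and of another start of Bcl2l1, and a p53 half-site in 1, of Bax. They were in 7.28% and 7.12% of all windows. A match is a run of letters, not a bound site, and distal elements were not searched.

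Among the pro-survival genes, Mcl1 had the broadest expression. Over all cells its level, the natural log of 1 plus reads per 10000, ran from 0 to 3.26 with a median of 0.98 and a mean of 1.03 (SD 0.71, over cells). It was detected in 89% of cells (86.4 to 91.3%), and in 80.3% (76.8 to 83.5%) at 20000 reads. A cell with a read of Mcl1 at that depth had a median of 4 and up to 48 reads of it.

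Bcl2l1 ran from 0 to 2.75 on the same scale, with a median of 0.86 and a mean of 0.84 (SD 0.66). It was detected in 81.3% of cells (78.1 to 84.2%), and in 71.5% (67.6 to 75.2%) at 20000 reads. At equal depth the interval of Bcl2l1 lay below that of Mcl1.

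Bcl2, the founding member (chromosome 1, 106538178 to 106714274, minus strand), was sparse. Its median level was 0, its mean 0.10 (SD 0.34) and its highest value 3.82. It was found in 99 cells, 15.1% (12.4 to 18.1%), and in 9.33% (7.07 to 12%) at 20000 reads. One cell, at 44.7 reads per 10000, held 26.6% of the Bcl2 signal summed over cells, and without that cell the mean fell from 0.256 to 0.189 reads per 10000. The next highest cell had 15.9.

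Detection of every member is given in the plot of shares by gene, at full and at equal depth.

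**Figure D1:**
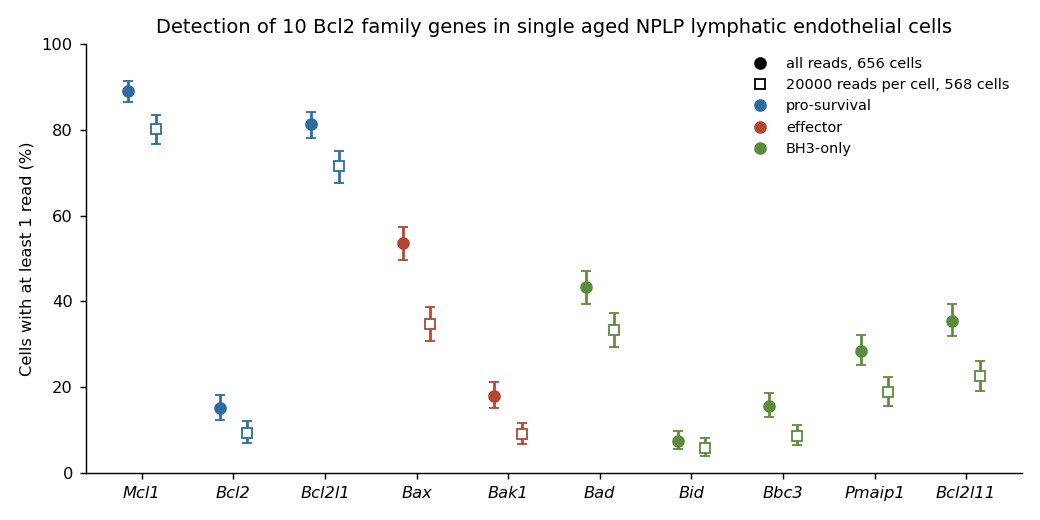
Share of cells (%) with at least 1 read of each of the 10 members, with all reads (filled circles) and at 20000 reads per cell (open squares). Bars are exact 95% intervals covering counting error only, and colour gives the role. Mcl1 (89%) and Bcl2l1 (81.3%) stood above the other 8 members, of which Bax was highest at 53.5%.

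Of the effectors, which form the pore, Bax (chromosome 7, 45461697 to 45466898) was found more often than Bak1 (chromosome 17, 27019810 to 27029009). Bax had a mean level of 0.27 (SD 0.37, highest 1.81) and was detected in 53.5% of cells (49.6 to 57.4%), or 34.7% (30.8 to 38.8%) at equal depth. Bak1 had a mean of 0.06 (SD 0.20, highest 1.79) and was detected in 18% (15.1 to 21.2%), or 8.98% (6.76 to 11.6%) at equal depth. Their intervals did not overlap at either depth.

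The BH3-only genes sense different stresses. Bad, which growth-factor signalling keeps inactive by phosphorylation, was the most often detected, in 43.3% of cells (39.5 to 47.2%) with a mean of 0.33 (SD 0.53). Bcl2l11, which encodes BIM, a binder of all pro-survival proteins, followed at 35.5% (31.9 to 39.3%) with a mean of 0.23 (SD 0.50). Pmaip1, which encodes NOXA, a BH3-only protein that prefers MCL1, was found in 28.5% (25.1 to 32.1%) with a mean of 0.15 (SD 0.34).

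Bbc3, which encodes PUMA, a p53 target, was found in 15.7% of cells (13 to 18.7%) with a mean of 0.06. Bid, which links death receptors to mitochondria after cleavage by caspase-8, was the least detected at 7.47% (5.58 to 9.76%) with a mean of 0.05. Bid lay near the share of Fcer1g, and whether its reads came from the cells they were assigned to was not tested. At equal depth Bad (33.3%), Bcl2l11 (22.5%), Pmaip1 (18.8%), Bbc3 (8.63%) and Bid (5.81%) kept this order. The intervals of Bcl2l11 and Pmaip1 overlapped there, as did those of Bbc3 and Bid. In GRCm38, Bad lies on chromosome 19 (6941861 to 6951899, plus strand), Bcl2l11 on chromosome 2 (128126038 to 128162547, plus), Pmaip1 on chromosome 18 (66458533 to 66465565, plus), Bbc3 on chromosome 7 (16308393 to 16318205, plus) and Bid on chromosome 6 (120891930 to 120916853, minus).

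**Figure D2:**
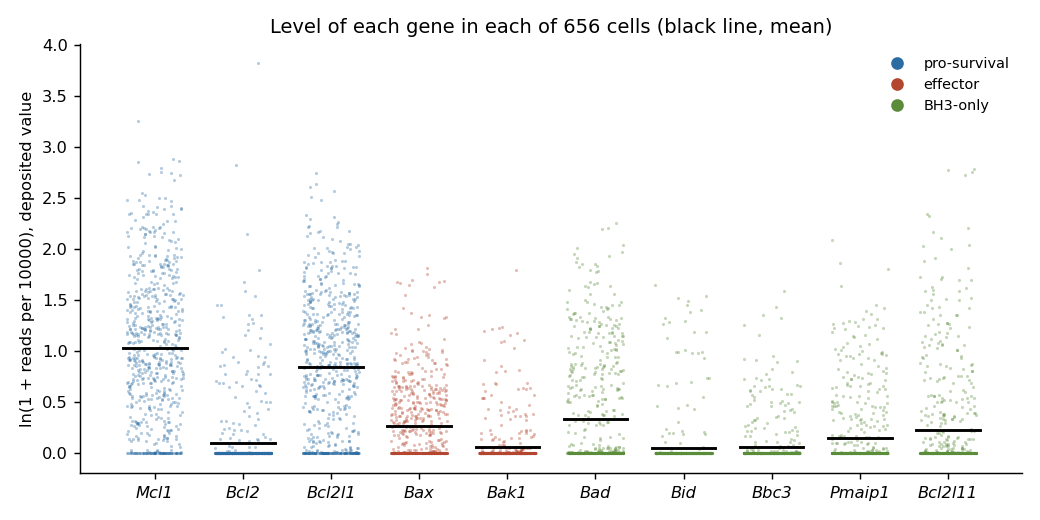
Deposited level of each member, ln(1 + reads per 10000), in every cell (points) with the mean over cells (black line). Mcl1 (mean 1.03) and Bcl2l1 (mean 0.84) formed broad distributions above 0, whereas in 7 of the other members the median cell was at 0.

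The shares moved with depth. From the shallowest to the deepest of 4 equal groups of cells, detection of Mcl1 went from 78.7 to 97%, of Bcl2l1 from 64.6 to 95.1%, of Bax from 35.4 to 69.5% and of Bcl2l11 from 19.5 to 50.6%. Bid stayed between 6.10 and 9.76% over the 4 groups. At 20000 reads, many calls of some members rested on single reads. Of the cells with Bak1 47.1% had 1 read of it, and of those with Bbc3 46.9%, compared with 16.5% for Mcl1. The share did not follow how rare a member was, being 41.6% for Bax, 30.2% for Bcl2 and 18.2% for Bid.

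Reads from whole transcripts tend to rise with transcript length, so the members were set against each other per kilobase of exon. How far reads followed length in these libraries was not tested. On this scale, reads per 10000 per kb, Mcl1 was highest at 0.781, followed by Bcl2l1 (0.418), Bax (0.267), Bad (0.262), Pmaip1 (0.0949), Bcl2l11 (0.0673), Bbc3 (0.0446), Bak1 (0.0380), Bcl2 (0.0280) and Bid (0.0279). The level of Mcl1 was at percentile 96.4 of the 20210 genes with a length and a read, and that of Bcl2l1 at percentile 93.6. Bax and Bad were next to each other, as were Bcl2 and Bid, and both pairs changed order under other choices, Bax and Bad when the longest transcript was used as length (0.383 and 0.438).

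Among the members, Mcl1 made up 63.7% of the summed pro-survival level per kb. The pro-survival members together stood 4.02 times above the 2 effectors. Without length correction the share was 55.1% and the ratio 9.44. Relatives outside the member list were not in these sums. Of them, the pro-survival Bcl2l2 stood at 0.137 and the effector-like Bok at 0.774, above Bax (0.267), so the ratio does not describe the whole family. The Mcl1 share was 50% with the longest transcript as length and 51.2% when reads of all cells were pooled. On these scales Mcl1 and Bcl2l1 were close (0.781 and 0.746, and 0.543 and 0.499). Exons of 5 members overlap those of a neighbouring gene, namely Bad and Gpr137, Bak1 and Ggnbp1, Bid and Bcl2l13, and Bcl2 and D630008O14Rik on opposite strands, and Bax and Gm45808 on the same strand. Whether counting used strand is not stated, so reads in those stretches cannot be assigned to either gene with certainty. No such overlap was found for Mcl1, Bcl2l1, Pmaip1, Bbc3 or Bcl2l11.

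Mcl1 and Bcl2l1 were found together in most single cells, whereas all 3 pro-survival genes were seen in 5.81%. At 20000 reads, Mcl1 and Bcl2l1 were both detected in 58.8% of cells, Mcl1 without Bcl2l1 in 21.5%, Bcl2l1 without Mcl1 in 12.7% and neither in 7.04%. At least 1 pro-survival gene was seen in 93.7% of cells (91.3 to 95.5%), at least 1 effector in 40.8% (36.8 to 45%) and at least 1 BH3-only gene in 63% (58.9 to 67%). Both effectors were seen in 2.82% of cells. A cell had a median of 3 members detected, and the count ran from 0 to 7.

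Mcl1 was found more often in cells with another pro-survival transcript, and how far apart the groups stood depended on depth. At 20000 reads it was seen in 82% (78 to 85.5%) of the cells with Bcl2 or Bcl2l1 and in 75.3% (67.5 to 82.1%) of those with neither, with overlapping intervals. At 100000 reads, in fewer cells, the shares were 92.5% (89 to 95.1%) and 78.2% (65 to 88.2%, 55 cells), whose intervals did not overlap. With all reads they were 90.2% (87.4 to 92.55%) and 82.9% (74.3 to 89.5%), and the intervals overlapped again. Cells with a partner also had more detected genes, with medians of 2915 and 2775 at 20000 reads and 3902 and 3599 at 100000. With all reads the medians were 4159 and 2938. The part of this in the difference was not tested. At 20000 reads Mcl1 was seen in 87.9% (80.1 to 93.4%) of cells with Pmaip1 and in 78.5% (74.5 to 82.2%) of cells without it, and in 84.4% (76.9 to 90.2%) of cells with Bcl2l11 and 79.1% (75 to 82.8%) without, with overlapping intervals for both.

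No pro-survival transcript was detected in 36 cells (6.34%, 4.48 to 8.67%). Of these, 13 were among the 40 thinned cells of the small cluster led by Alkbh8 described next. In the Fxyd2 cluster there were 0 among 65, with a limit of 4.62%. The 36 cells had a median of 2513 detected genes at equal depth, compared with 2903.5 in the other cells, so a missed transcript and an absent one cannot be told apart in them.

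Cells were clustered without the 10 members, to ask where in the plexus each was found. The clusters, 6 in all, were named from markers where at least 3 of a class were raised. The Ptx3- capillary class met this in 2 clusters, and the one with Ptn, Anxa3 and Stc1 raised is called by its leading gene, Pthlh, to keep them apart. The largest were Ptx3+ capillary-like cells (29.7% of cells, led by Gm525 and Stab2) and precollecting-like cells (24.5%, with Foxp2, Apoe, Bmp4 and Clu). Next came Ptx3- capillary-like cells (15.9%, with Fndc1, Ptn, Reln and Ccl21a) and a Pthlh cluster (11.9%, with Ptn, Anxa3 and Stc1). Lyve1, which the study pairs with Foxp2 for precollecting LECs, was raised in Ptx3- capillary-like and not in precollecting-like cells. An unnamed Fxyd2 cluster (11.4%) was led by Fxyd2, Gdf15 and Gdf10. Of the upstream and downstream valve genes, Cldn11, Gata2 and Lama5 were raised in it, and Foxc2, Itga9, Gja1, Gja4 and Clu were not. The last was an unnamed Alkbh8 cluster (6.56%, 43 cells). The Alkbh8 cells had a median of 1869.5 genes at equal depth, compared with 2793.5 to 3163 in the other 5 clusters, and a mean mitochondrial share of 2.76% compared with at most 1.96%. Bcl2 was among the 10 genes leading that cluster, which also held the cell at 44.7.

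Between the highest and lowest of the 6 clusters, 8 of 10 members differed at least 1.5-fold in mean reads per 10000 (0.1 added), where 78.9% of 11661 genes did. Across the 5 larger clusters it was again 8, where 60.1% of genes did. By detection at 20000 reads, for which all 10 passed a minimum of 5% of cells, the interval of the highest of the 5 larger clusters lay above that of the lowest for 4 members, Pmaip1, Mcl1, Bcl2l1 and Bcl2l11, and for 18.4% of 9730 genes. With another random thinning only Pmaip1 and Bcl2 met this rule, as did 18.5% of genes, and Pmaip1 was the only member to meet it in all 9 settings tried (8 clusterings and that thinning). Mcl1 met it in 6, Bcl2l1 and Bcl2l11 in 5 each, Bad in 3, Bcl2 in 1, and Bax, Bak1, Bid and Bbc3 in 0.

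Pmaip1 was thus the member whose uneven distribution held across settings. It was detected at 20000 reads in 39.1% of Ptx3- capillary-like cells (interval 28.8 to 50.1%). Ptx3+ capillary-like cells followed at 26.1% (19.5 to 33.6%) and Fxyd2 cells at 18.5% (9.92 to 30%). It was found in 9.86% (4.06 to 19.3%) of Pthlh cells, 6.94% (3.38 to 12.4%) of precollecting-like cells and 5% of Alkbh8 cells. In the other thinning Ptx3- capillary-like cells were at 31% (21.6 to 41.9%), nearer to Ptx3+ capillary-like cells at 26.1% (19.5 to 33.6%), and precollecting-like cells at 6.94% (3.38 to 12.4%). The Ptx3- and Ptx3+ capillary-like clusters lay above precollecting-like cells without overlap, and their intervals overlapped each other. The Pthlh cluster, which had also met the Ptx3- capillary rule, lay below both and overlapped precollecting-like cells, so the high share did not extend to that whole class.

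On the linear scale the mean of Pmaip1 was 0.526 reads per 10000 in Ptx3- capillary-like cells, 0.0704 in precollecting-like cells and 0.0609 in Pthlh cells. With 0.1 added, the highest was 3.89 times the lowest, at percentile 97.6 of all genes across the 5 larger clusters. Cell numbers fall into 12 blocks of 96. In the first 6 blocks Ptx3- capillary-like and precollecting-like cells stood at 40.3% (28.5 to 53%) and 8.79% (3.87 to 16.6%), and in the last 6 at 35% (15.4 to 59.2%, 20 cells) and 3.77% (0.460 to 13%, 53 cells), without overlap in either set. Ptx3+ capillary-like cells stood at 31.3% (21.6 to 42.4%) in the first 6 and 20.5% (12.2 to 31.2%) in the last 6. In the last 6 their interval overlapped that of precollecting-like cells. The clusters were built on all cells, so the 2 sets are not independent. Pmaip1 was also the only member among the 2000 most variable genes, from which the members had been left out. The highest cluster was led by Tppp3, with Fndc1 among its first 5 genes, in all 8 clusterings.

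**Figure D3:**
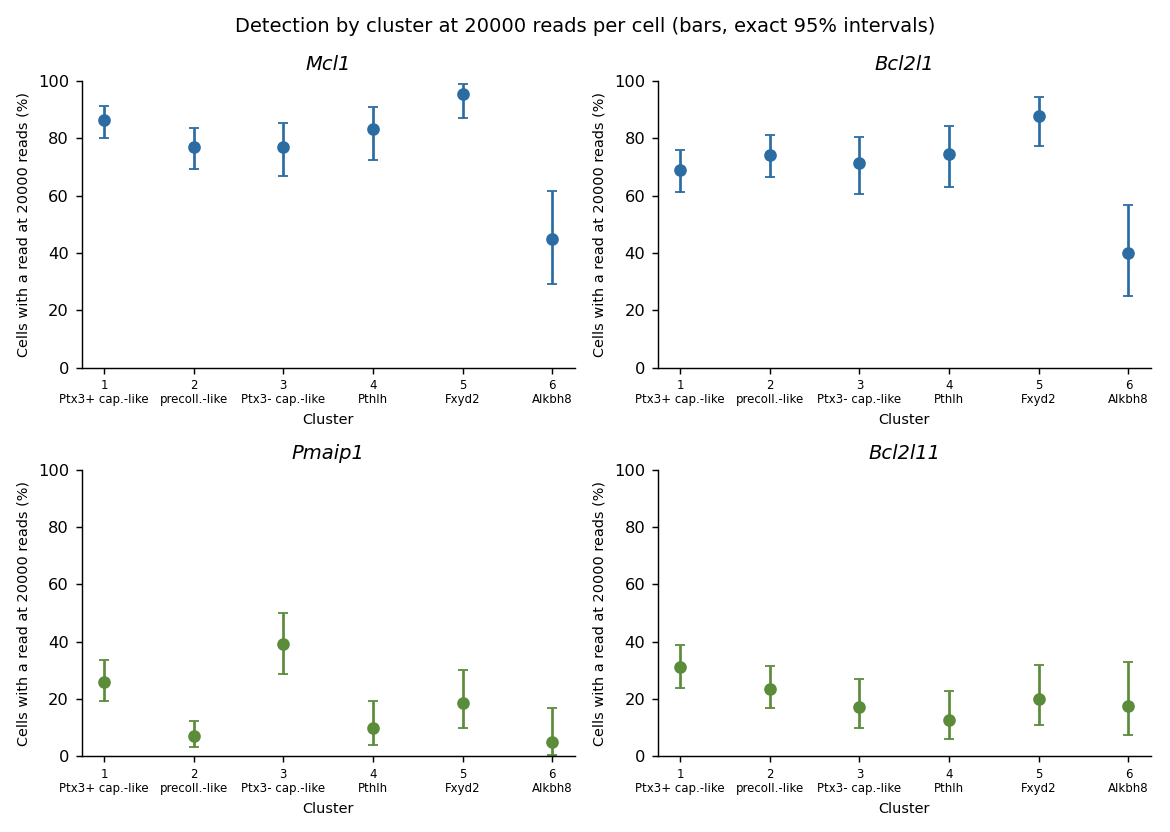
Share of cells (%) with a read of Mcl1, Bcl2l1, Pmaip1 and Bcl2l11 at 20000 reads per cell in each of the 6 clusters, with exact 95% intervals covering counting error only. Pmaip1 ran from 39.1% in Ptx3- capillary-like cells to 6.94% in precollecting-like cells among the 5 larger clusters, and the Alkbh8 cluster was low for Mcl1 (45%) and Bcl2l1 (40%).

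For Mcl1 the 5 larger clusters were closer together. At 20000 reads it was detected in 95.4% (87.1 to 99%) of Fxyd2 cells, 86.3% (80.1 to 91.2%) of Ptx3+ capillary-like cells and 83.1% (72.3 to 91%) of Pthlh cells. Shares were 77.1% (69.4 to 83.7%) in precollecting-like and 77% (66.8 to 85.4%) in Ptx3- capillary-like cells. Fxyd2 cells alone stood apart from the lowest 2, and neighbours in the order overlapped. In the other thinning Fxyd2 cells were at 92.3% (83 to 97.5%) and overlapped every one of these clusters.

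Mean reads of Mcl1 per 10000 were 4.05 in Fxyd2 cells and 2.04 in Ptx3- capillary-like cells, a 1.94-fold difference with 0.1 added, at percentile 75.8 of all genes. The Alkbh8 cells were lower still at 1.46, which brought the fold to 2.66. The place of the highest cluster depended on the clustering. Without regression of the dissociation score, Mcl1 was highest, at 4.62 reads per 10000, in a cluster led by Selp and Gpx3 of which 88.5% came from Ptx3+ capillary-like cells, and clusters led by Selp were also highest without any regression and at a resolution of 1.5.

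Bcl2l1 was more even, with a 1.40-fold difference between clusters at percentile 27.4 of all genes across the 5 larger clusters. It was detected in 87.7% (77.2 to 94.5%) of Fxyd2 cells and 68.9% (61.2 to 76%) of Ptx3+ capillary-like cells. Bcl2 was found in 14.3% (9.28 to 20.7%) of Ptx3+ capillary-like cells and 3.08% (0.375 to 10.7%) of Fxyd2 cells, with overlapping intervals.

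Bcl2l11 was detected in 31.1% (24 to 38.8%) of Ptx3+ capillary-like cells and 12.7% (5.96 to 22.7%) of Pthlh cells, and in the other thinning these intervals overlapped. Bax differed by 1.36-fold across clusters (1.12 to 2.23 over other settings), between 32.4 and 37.3% of cells in the 5 larger clusters. Bad ran from 28.6 to 39.1% there, Bak1 from 6.15 to 11.8%, Bbc3 from 6.15 to 11.3% and Bid from 2.30 to 9.03%. Bid was seen in 0 of the 40 thinned Alkbh8 cells, a count compatible with up to 7.50%.

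The level of Mcl1 followed that of immediate-early and stress genes across cells. A score was taken as the mean level of 30 genes known to be induced by tissue dissociation, such as Fos, Junb, Atf3 and Nfkbia, in the cells at 20000 reads. Spearman's rho of Mcl1 with the score was 0.30, at percentile 97.3 of the 3284 genes detected in at least 30% of these cells and not in the score, whose median rho was 0.01. The points are cells of 1 pool brought to equal depth, so rho is a description. Whether all of them shared 1 digestion is not stated.

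For Bcl2l1 rho with the score was 0.01. It was 0.18 for Bcl2l11, 0.11 for Bbc3, 0.10 for Pmaip1, 0.07 for Bid and 0.04 for Bad, and between -0.01 and 0.01 for Bax, Bak1 and Bcl2. Mcl1 had a rho above 0 with 30 of the 30 genes of the score (median 0.18, from 0.06 for Sdc4 to 0.35 for Nfkbia), and Bcl2l1 with 18 of 30 (median 0.00). These genes make up the score and vary together, so the counts restate the rho with the score and add no separate evidence. The 26 of them seen in at least 30% of these cells had a median rho of 0.62 with the score, each being part of it. The score was lowest in the Alkbh8 cells (mean 0.79) and ran from 1.15 to 1.32 in the other clusters, being highest in Fxyd2 cells. The rho of Mcl1 stayed between 0.28 and 0.33 with cluster means removed, block means removed or the number of detected genes regressed. It did so too with all reads, at 100000 reads, in another thinning and without single blocks.

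**Figure D4:**
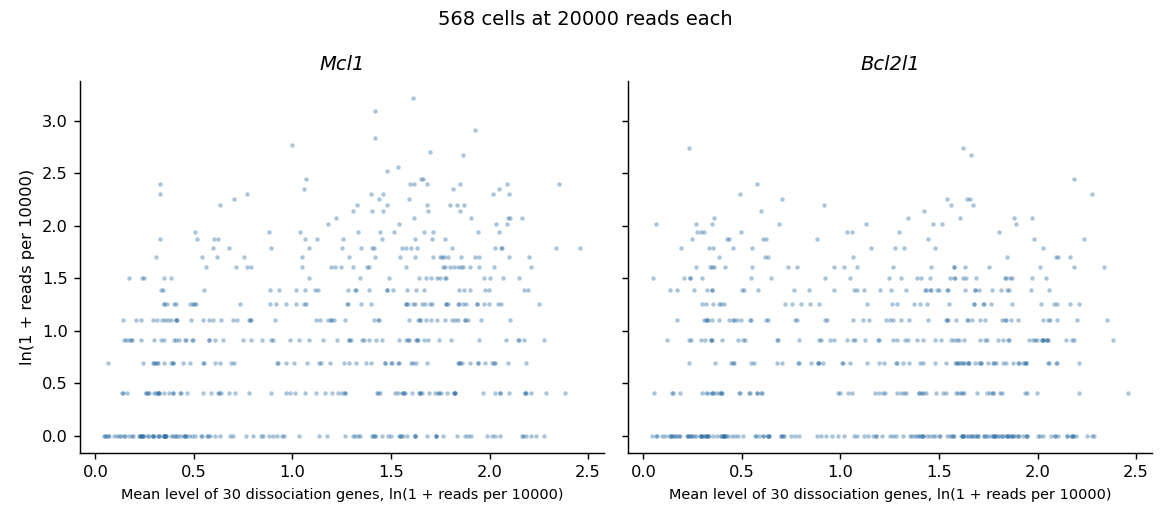
Level of Mcl1 (left) and Bcl2l1 (right), ln(1 + reads per 10000), against the mean level of 30 dissociation genes on the same scale, 1 point per cell, in cells thinned to 20000 reads. High Mcl1 levels were more frequent toward the right (rho 0.30), and Bcl2l1 showed no such slope (rho 0.01).

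Among the genes whose levels were most like that of Mcl1 over these cells were Nfkbia (rho 0.35), Sbno2 (0.32), Socs3 (0.31), Irf1, Csrnp1, Fosl2, Rgs16, Kdm6b and Sertad1, the last 6 within 0.01 of each other at about 0.30. Nfkbia encodes an inhibitor of NF-kB, Socs3 an inhibitor of cytokine signalling, Irf1 an interferon-regulated transcription factor and Fosl2 an AP-1 subunit, and Nfkbia and Socs3 are part of the score. With Bcl2l1 the rho of these 9 genes lay between -0.02 and 0.09. Across the 45 pairs of members rho ran from -0.11 to 0.11 with a median of 0.02, and in sparse counts such values are no finding.

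Around the family, other genes of the mitochondrial pathway were counted in the same cells. Among all genes of the matrix 90.6% had a read and 41.7% were in at least 10% of cells. Of 14 other Bcl2 relatives, 9 had a row and 8 were in at least 10% of cells. Bnip3l, a mitophagy receptor, was found in 78% of cells (74.7 to 81.2%), Bok, an effector-like member, in 59.3% (55.4 to 63.1%), Bik, a BH3-only gene, in 49.4% (45.5 to 53.3%) and Bcl2l2, which encodes the pro-survival BCL-W, in 42.4% (38.6 to 46.3%). Hrk had 0 reads, with a limit of 0.457%. Per kb the level of Bok, 0.774, was close to that of Mcl1, 0.781.

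All 17 genes of the caspase list had a read, and 15 were in at least 10% of cells. The inhibitors Xiap and Cflar were in 69.2% and 68.9% of cells, Cycs (cytochrome c) in 66.6% and Apaf1, which builds the apoptosome, in 53.4%. The initiator Casp9 was in 17.4% (14.6 to 20.5%). Birc5, made in dividing cells, was in 0.305%.

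Of 4 genes acting on MCL1 turnover, the ubiquitin ligase gene Huwe1 was in 83.2% of cells (80.2 to 86%), the deubiquitinase gene Usp9x in 54.7%, Fbxw7 in 24.4% and Trim17 in 1.07%. Of 4 transcription factors of BH3-only genes, Trp53 was in 53.4%, Ddit3 in 45.9%, Foxo3 in 38.4% and E2f1 in 1.68%. Ddit3, induced by endoplasmic reticulum stress, had a rho of 0.26 with the dissociation score and Trp53 one of 0.01. The channel genes Vdac2 and Vdac1, whose products anchor effectors at mitochondria, were in 74.8% and 64.6%.

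By the interval rule across the 5 larger clusters, 1 of 8 other Bcl2 relatives tested (Bmf), 1 of 15 caspase genes (Casp6), 1 of 3 turnover genes (Fbxw7), 0 of 3 transcription factors and 1 of 2 channel genes (Vdac1) had intervals apart. These counts stand beside the 18.4% of all genes given above. Casp6 had a 2.60-fold difference between clusters and was highest in Ptx3- capillary-like cells, the cluster in which Pmaip1 was highest.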

How the data were processed

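Single-cell Smart-seq3 profiles of sorted NPLP LECs were analysed. The authors aligned reads to mm10 with STAR, counted them per gene with featureCounts (Subread) and used Seurat 4.1.0, and they removed cells with few genes or a high mitochondrial share. On a linear scale the deposited values, read as natural logs with 1 added, summed to 10000 in every cell, although the methods give base 2. Taking the smallest value above 0 in a cell as 1 read, 100% of values were whole within 0.01 reads. Of 1152 labelled cells, 656 were analysed here, 568 of them at equal depth (the share of cells in each comparison is of these), and 496 were not. The members and gene lists were chosen with earlier results of these data known. Named genes were all members, the highest, lowest and some others of each list, and the 10 genes with the highest rho with Mcl1, of which 1 is not reported here. Clustering used Seurat 5.3.0 (R 4.3.3) on 2000 variable genes without the members, regression as in the study, 15 principal components and the lowest resolution giving at least 5 clusters. Doublets were not called, because wells received single cells. Lengths and positions came from GENCODE M21, in which 22224 symbols were found once. Intervals used scipy 1.17.1. PCR copies were not collapsed. Read recovery, thinning, the interval rule and rho were tested on simulated data.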

Additional observations from a re-analysis of the deposited data

How the results depend on the processing

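No paired analysis was possible because all cells belong to 1 group. The share of cells with Mcl1 was 49.4% with a value above 1 as the limit, 93.2% in cells with at least 3000 genes, 80.3% at 20000 reads and 81.3% with another thinning, a choice made after seeing the data. The median share of the members (32%) was 4.88%, 35.8%, 20.7% and 20.2% under the same settings. Leaving out each block of 96 cell numbers gave 88.5 to 89.7% for Mcl1, 30.6 to 33% for the median share, 62.5 to 64.6% for the Mcl1 share of the pro-survival level, 3.88 to 4.28 for the ratio to effectors and 0.29 to 0.32 for rho with the dissociation score. The ratio to effectors was 9.44 without length correction. The fold of Mcl1 between the highest and lowest cluster (2.66 with the 6 clusters) was 4.31 at a resolution of 1.5, 6.47 with 30 principal components and 4.80 with 3000 variable genes. Among lower values were 1.84 with 10 principal components, 2.05 with 1 added to means, 2.21 without regression and 2.43 with reads summed over cells. The number of clusters changed with the clustering. With 1 in place of 0.1 added to means, 4 members and 13.2% of all genes reached 1.5-fold. Among cells with a second pro-survival gene, Mcl1 was seen in 92.5% at 100000 reads and 90.2% with all reads, and without one in 78.2% and 82.9%. At each depth Mcl1 was seen more often with a second pro-survival gene than without one. Its rho with the dissociation score stayed positive in every setting. Detection shares, and folds of the highest over the lowest cluster, have no direction that could reverse. Which cluster was highest in Mcl1 did change with the clustering, as given above. For single members, 33 of the detection shares and 25 of the folds moved beyond their limits, and the others did not. The cause of these moves was not tested, beyond fewer reads giving fewer detections. Leaving out the smallest cluster, comparing the first and last 6 blocks and the interval rule were also chosen after seeing the data. Depth limits detection, and absence of a read is not absence of the transcript in any member.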

Other observations

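Cell numbers were split into 12 blocks of 96, the size of a plate, holding 16 to 81 cells at 20000 reads. Detection of Mcl1 ran from 72.5% (60.4 to 82.5%) to 94.3% (80.8 to 99.3%), that of Bcl2l1 from 62.2% (44.8 to 77.5%) to 93.8% (69.8 to 99.8%, the block of 16 cells) and that of Pmaip1 from 8.11% (1.70 to 21.9%) to 32.1% (22.2 to 43.4%). The intervals of the lowest and highest block overlapped for Mcl1 and Bcl2l1, and were just apart for Pmaip1. Whether the numbers follow plates is not stated in the labels.

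The 5 genes most like Bcl2l1 over the same cells were Sars, Lamb2, Sbds, Vamp3 and Rapgef5, with rho from 0.20 to 0.15, and those most like Bad were Nts, Pmp22, Arhgef10, Impact and Lgals3bp, from 0.19 to 0.16. These values were lower than those of the genes nearest to Mcl1, and the difference was not tested.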
